A study of Mus musculus with 9 samples.

Results

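Pou5f1, Sall4, Utf1, Dppa4, L1td1, Otx2, Pou3f1 and Epha1 were followed as core and primed epiblast genes, chosen by symbol from the 24736 genes of the expression table, and all 8 symbols were found. RNA was sequenced from 9 libraries of caudal epiblast-like cells (CEpiLCs), made in vitro from mouse embryonic stem cells (ESCs) and taken at 72 h, on day 3. The 3 genotypes were wild type (WT), the triple mutant Cdx1/2/4-/- (CdxKO) and the mutant T/Bra-/- (T/BraKO), with 3 biological replicates each, numbered 1 to 3. All 9 cultures were given 10 ng/ml bFGF and 5 uM LGK974, which blocks secretion of WNT ligands, with CHIR99021, which activates WNT signalling inside the cell, added after the first 2 days. The ESC lines were derived from 1 parental line that served as WT and were kept on mouse embryonic fibroblast feeders before differentiation, and 1 line was named per genotype, so that a mutation and the history of its line cannot be told apart.

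The core pluripotency network is built around the transcription factors OCT4, SOX2 and NANOG, and is kept in part as the naive epiblast of the blastocyst moves to the primed state that precedes gastrulation. The caudal epiblast is the later, WNT-exposed part of that epiblast, which turns on T and the Cdx genes and feeds the growing trunk. Pou5f1 encodes OCT4, and Sall4 a zinc finger factor that binds with it. Utf1 and Dppa4 encode chromatin-associated proteins of pluripotent cells, and L1td1 an RNA-binding protein derived from a LINE-1 element. Otx2 and Pou3f1, which encodes OCT6, are transcription factors of the primed and anterior epiblast. Epha1 encodes a receptor tyrosine kinase for ephrin-A ligands.

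Expected counts summed to between 25124344 and 34705361 per library, and normalised counts below are these counts divided by DESeq2 size factors of 0.797 to 1.12. T had 10900, 11070 and 14760 normalised counts in WT replicates 1, 2 and 3 and 1777, 2214 and 2894 in T/BraKO. Cdx4 had 161, 60.0 and 133 in WT and 1.25, 1.79 and 1.88 in CdxKO, and Cdx2 had 6106, 2699 and 3793 in WT and 1625, 706 and 761 in CdxKO. Cdx1 had 444, 626 and 539 in WT and 302, 320 and 193 in CdxKO, so each targeted gene was lower in its mutant within every replicate number. The 15 caudal epiblast markers summed to 813 to 1587 TPM, a share of all transcripts corrected for length, and the 14 naive markers to 210 to 301. Most of the naive sum was Gbx2 alone in every library, at 122 to 213 TPM. The sums were 29.6 to 158 for 10 paraxial mesoderm markers, 6.08 to 27.3 for 10 neural markers and 8.83 to 32.5 for 7 endoderm markers. Libraries that shared a replicate number deviated together from the means of their genotypes, so each genotype comparison is given without a block and with one for the replicate number.

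All 8 genes were detected in every library, with at least 71 reads. In TPM, which is corrected for transcript length and lets genes be set side by side, Pou5f1 stood far above the other 7, at 880 ± 207 (SD, n = 3) in WT, and ranked 127 of 24736 genes by its mean over the 9 libraries. Epha1 followed in WT at 124 ± 39.1 TPM, Sall4 at 111 ± 13.2 and L1td1 at 66.3 ± 40.9. Utf1 was at 41.6 ± 27.2 TPM, Dppa4 at 21.9 ± 3.06, Pou3f1 at 18.3 ± 7.96 and Otx2 at 7.14 ± 5.61. Between neighbours in this order the WT libraries did not overlap only for Pou5f1 above Epha1 and for Utf1 above Dppa4, so the order of the other neighbours is not set beyond their spread. Pou5f1 was highest and Otx2 lowest in the mean of each mutant too, and in T/BraKO the means of Sall4 (130 ± 22.1 TPM) and Epha1 (127 ± 40.6 TPM) changed places within overlapping ranges, as did those of Dppa4 and Pou3f1 in both mutants. Together the 8 genes took 0.103%, 0.115% and 0.164% of all TPM in WT replicates 1, 2 and 3, and 0.138%, 0.160% and 0.205% in T/BraKO, the replicate 3 library being the highest of its genotype in both. CdxKO had 0.125%, 0.115% and 0.179%, with replicate 3 again the highest.

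**Figure D1:**
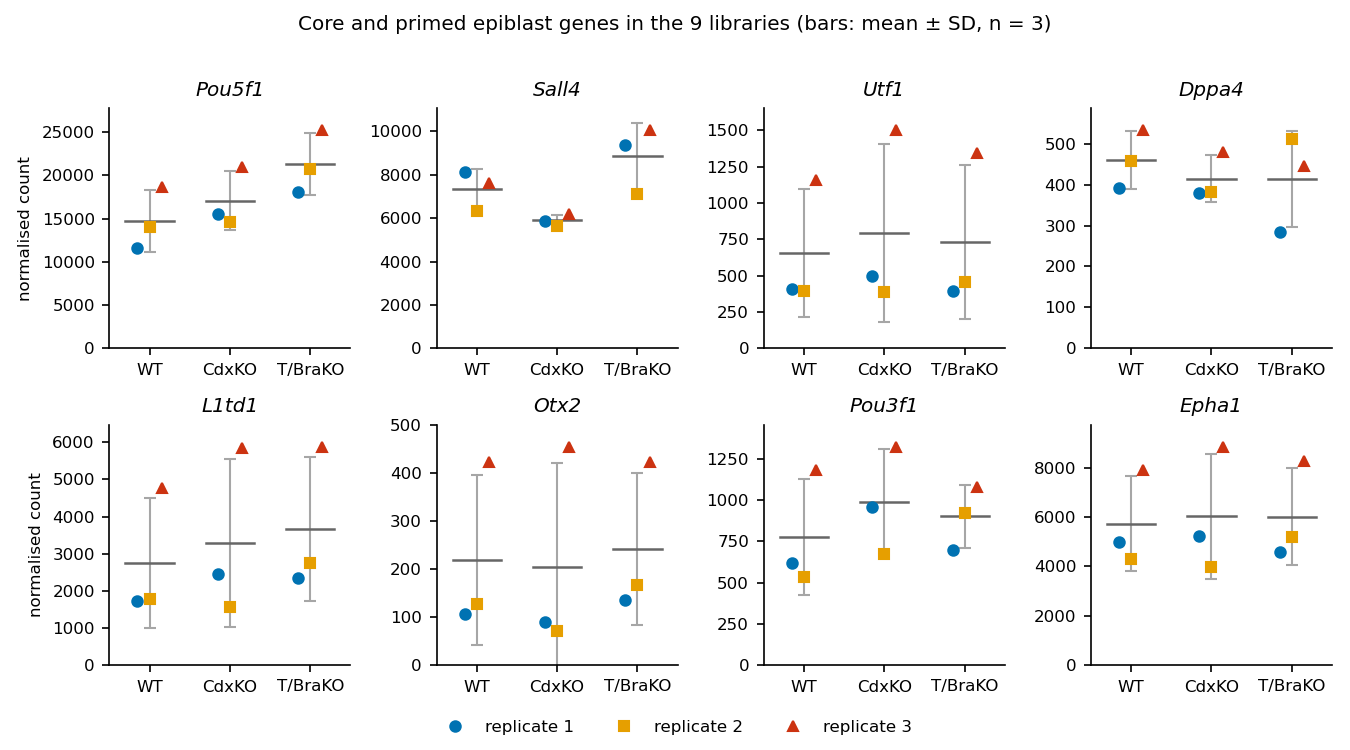
Normalised counts of the 8 genes (linear axes from 0) in WT, CdxKO and T/BraKO, with 1 point per library, colour and shape for the replicate number, a line at the mean and a bar of 1 SD (n = 3; the bar of Otx2 in CdxKO runs below 0 and is clipped). Pou5f1 steps up from WT to T/BraKO and Sall4 is lowest in CdxKO, while the replicate 3 libraries of Utf1, L1td1, Otx2, Pou3f1 and Epha1 lie above the other 6.

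Pou5f1 was the member that stood highest in T/BraKO relative to WT. It had 11611, 14005 and 18624 normalised counts in WT replicates 1, 2 and 3. In CdxKO the counts were 15540, 14672 and 20981, and in T/BraKO 18062, 20775 and 25219. The WT and T/BraKO ranges overlapped, because WT replicate 3 lay above T/BraKO replicate 1, but within each replicate number T/BraKO was higher, by 1.56, 1.48 and 1.35-fold. CdxKO was above WT in each number as well, by 1.34, 1.05 and 1.13-fold, and T/BraKO was above CdxKO in each. Without the block the log2 fold change of T/BraKO against WT was 0.53 (SE 0.21) and did not pass DESeq2 (adjusted p = 0.491), although it did without WT replicate 3 (0.74, adjusted p = 0.0289). With the block it was 0.55 (95% interval 0.42 to 0.68, adjusted p = 3.01e-14 in DESeq2 and 0.00146 in edgeR), and it passed in all 9 fits that left out 1 library. In bulk RNA a higher share of cells that express a gene and more RNA per cell cannot be told apart.

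For CdxKO against WT the log2 fold change of Pou5f1 was 0.21 without the block (DESeq2 adjusted p = 0.9998) and 0.22 with it (95% interval 0.09 to 0.35, adjusted p = 0.0219 in DESeq2 but 0.0942 in edgeR). This call passed in 3 of 9 fits that left out 1 library. It was lost without WT replicate 1 (0.15, adjusted p = 0.579), WT replicate 2 (0.25, 0.122), WT replicate 3 (0.26, 0.0655), CdxKO replicate 1 (0.14, 0.497), CdxKO replicate 3 (0.22, 0.171) or T/BraKO replicate 1 (0.22, 0.0702). Set directly against T/BraKO, CdxKO was lower by a log2 fold change of -0.33 with the block (95% interval -0.46 to -0.20, adjusted p = 2.20e-05) and by -0.32 without it (adjusted p = 0.674). The blocked call held in all 9 fits that left out 1 library, between -0.41 and -0.24. Pou5f1 had fractional expected counts in all 9 libraries, which RSEM gives where reads also match near-identical sequence, so part of its count is an apportioned one. The gene lies at chr17:35506018-35510772 on the plus strand (GRCm38, GENCODE M21) and overlaps Gm19553 on the other strand. The libraries kept strand and the study's methods give a strand-specific setting for the counting.

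Sall4 was lower than WT in CdxKO and higher in T/BraKO, in each case by a difference that passed with the replicate block. WT replicates 1, 2 and 3 had 8126, 6341 and 7644 normalised counts. CdxKO had 5868, 5662 and 6188 and T/BraKO 9391, 7117 and 10054. Every CdxKO library lay below every WT and every T/BraKO library, while WT and T/BraKO overlapped. Sall4 was the 1 of 8 genes without overlap in CdxKO against WT and in CdxKO against T/BraKO, where 9.87% and 15.5% of the 12316 genes averaging at least 50 normalised counts had none, and 0 of 8 had none in T/BraKO against WT (9.92% of those genes). Within replicate numbers 1, 2 and 3 CdxKO was 0.722, 0.893 and 0.810 of WT, and T/BraKO was 1.12 to 1.32 times WT.

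Without the block, Sall4 in CdxKO against T/BraKO was the single call among the 8 genes, with a log2 fold change of -0.58 (SE 0.15, DESeq2 adjusted p = 0.00546; 3.48% of 16016 tested genes were called in either direction and 0.962% lower). In edgeR without the block it did not pass (adjusted p = 0.0762). It was also lost without CdxKO replicate 1 (-0.58, adjusted p = 0.0597), T/BraKO replicate 1 (-0.54, 0.0922) or T/BraKO replicate 3 (-0.48, 0.0823). With the block it was -0.57 (95% interval -0.71 to -0.43, adjusted p = 2.62e-13) and passed in all 9 fits that left out 1 library.

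Against WT, Sall4 passed only with the block, at -0.31 in CdxKO (95% interval -0.45 to -0.17, adjusted p = 9.01e-04 in DESeq2 and 0.0363 in edgeR) and at 0.26 in T/BraKO (0.12 to 0.40, adjusted p = 0.00661 in DESeq2 and 0.0454 in edgeR). The first was lost without WT replicate 1 (-0.26, adjusted p = 0.168), CdxKO replicate 1 (-0.24, 0.136) or CdxKO replicate 3 (-0.28, 0.0606). The second was lost without WT replicate 2 (0.24, adjusted p = 0.160), WT replicate 3 (0.22, 0.185), T/BraKO replicate 1 (0.24, 0.127) or T/BraKO replicate 3 (0.19, 0.251). Sall4 lies at chr2:168748332-168767943 on the minus strand (GRCm38) and overlaps Gm14261 on the other strand.

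For the other 6 genes no genotype comparison passed in DESeq2 or edgeR, with or without the block. Counted over all 8 genes, DESeq2 without the block called 0 when either mutant was set against WT, where 0.693% (CdxKO) and 1.08% (T/BraKO) of all tested genes were called in either direction. At an unadjusted p under 0.05, 1 member passed in each (Sall4 and Pou5f1), and edgeR without the block called 0 in all 3 comparisons (0.11%, 0.385% and 1.63% of all tested genes for CdxKO against WT, T/BraKO against WT and CdxKO against T/BraKO). With the block DESeq2 called 2 of 8 in CdxKO against WT (1 higher and 1 lower; 5.31% of all tested genes, 3.4% higher and 1.91% lower), 2 of 8 in T/BraKO against WT, both higher (9.68%, of which 4.83% higher), and 2 of 8 in CdxKO against T/BraKO, both lower (14.6%, of which 6.9% lower). edgeR with the block called 1, 2 and 2 of 8, against 4.61%, 9.37% and 18.5% of all tested genes. The median log2 fold change of the 8 genes with the block was 0.13, 0.25 and -0.13 in these comparisons, against -0.0019, 0.016 and -0.012 over all tested genes.

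The intervals of the other 6 genes still allow changes of some size. With the block, Epha1 was the most tightly bounded, at 0.05 in CdxKO (95% interval -0.12 to 0.21) and 0.08 in T/BraKO (-0.09 to 0.25) against WT. Utf1 was at 0.22 (-0.0017 to 0.45) and 0.14 (-0.09 to 0.36), and Dppa4 at -0.15 (-0.44 to 0.14) and -0.17 (-0.46 to 0.12). L1td1 had 0.23 (-0.19 to 0.65) and 0.47 (0.05 to 0.88, adjusted p = 0.164), with T/BraKO above WT in all 3 replicate numbers. Without CdxKO replicate 2, L1td1 passed in both mutants against WT (0.45 in each, adjusted p = 4.94e-05 and 2.56e-07). Pou3f1 was at 0.38 (-0.08 to 0.83) and 0.29 (-0.16 to 0.75), and it passed in CdxKO against WT without T/BraKO replicate 2 (0.37, adjusted p = 0.0106), as it then also did against T/BraKO (0.37, 0.0256). Otx2 was at -0.26 (-0.68 to 0.16) and 0.25 (-0.16 to 0.66), and in CdxKO against T/BraKO at -0.51 (-0.93 to -0.09, adjusted p = 0.0914), a difference that passed without CdxKO replicate 3 (-0.85, 0.0141) or T/BraKO replicate 3 (-0.78, 0.0396).

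**Figure D2:**
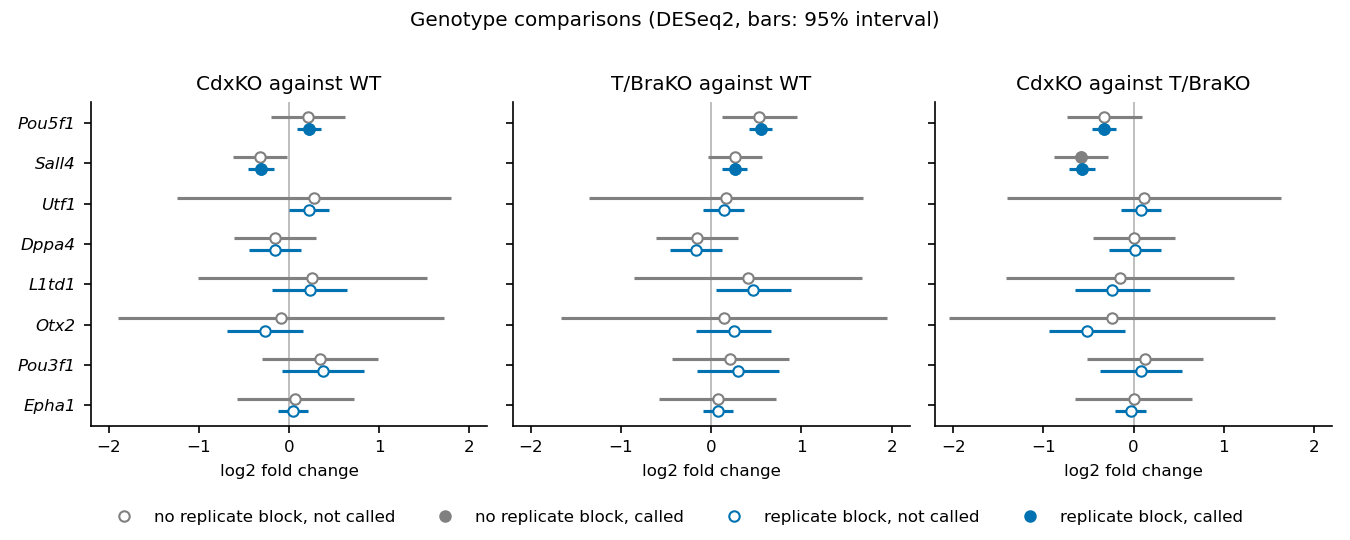
Log2 fold changes of the 8 genes (horizontal axis) in the 3 genotype comparisons, as points with 95% intervals from DESeq2, in grey without and in blue with the replicate block and filled where the adjusted p is at most 0.05. With the block the intervals shorten, and Pou5f1 and Sall4 are filled in all 3 panels.

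Caudal epiblast markers and markers of other cells moved with genotype too. Of 15 caudal markers, which include the targeted genes, 7 were higher and 4 lower in T/BraKO than in WT with the block (4.83% and 4.85% of all tested genes). Their median log2 fold change there was 0.37, beside 0.25 for the 8 genes. In CdxKO 1 was higher and 8 lower (3.4% and 1.91%, median -0.27). Without the block these counts were 2 and 3 in T/BraKO (0.148% and 0.937% of all tested genes), and 0 and 6 in CdxKO (0.335% and 0.358%). Of 7 paraxial mesoderm markers tested with the block, 5 were lower and 1 higher in T/BraKO than in WT (4.85% and 4.83% of all tested genes). Without it 4 of 10 were lower and 1 higher (0.937% and 0.148%). With the block Msgn1 (-5.64, adjusted p = 9.43e-13), Tbx6 (-3.30, 1.07e-18) and Rspo3 (-1.94, 2.88e-08) were the lowest of these, and in CdxKO 1 of 7, Hes7, was lower (-0.90, adjusted p = 4.04e-04). The 10 markers summed to 79.7 to 150 TPM in WT, 48.4 to 158 in CdxKO and 29.6 to 43.0 in T/BraKO. With the block 1 of 2 neural and 1 of 4 endoderm markers tested were lower in T/BraKO, and 1 of 5 neural and 0 of 7 endoderm markers in CdxKO. The 8 fibroblast markers, which the feeder cells would carry, summed to 38.7 to 68.9 TPM in WT, 47.0 to 85.0 in CdxKO and 36.3 to 57.9 in T/BraKO, and none was at or under 3 counts in every library. With the block 4 of 7 tested were lower in T/BraKO than in WT (4.85% of all tested genes), among them Col1a1 (-0.96, adjusted p = 1.05e-12), and 0 were higher. Thy1 went the other way, with 784, 670 and 521 normalised counts in T/BraKO replicates 1, 2 and 3 against 495, 520 and 417 in WT. It held 21.05 to 31.99 TPM of the T/BraKO sums. Dcn, with few reads, was also higher in T/BraKO, at 38.6, 76.9 and 30.5 against 34.9, 40.6 and 14.0 in WT. Col3a1 was mixed, at 314, 140 and 164 in T/BraKO against 375, 134 and 175 in WT. In CdxKO 2 of 7 were higher and 1 lower with the block (3.4% and 1.91% of all tested genes). The part of these markers in the differences of Pou5f1 and Sall4 was not tested.

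The replicate number, which the labels give without saying what differs between numbers, went with larger changes than the genotype in the 6 genes other than Pou5f1 and Sall4. Utf1 had 406, 396 and 1163 normalised counts in WT replicates 1, 2 and 3. It had 495, 390 and 1501 in CdxKO and 395, 460 and 1344 in T/BraKO. Replicate 1 was thus 1.03, 1.27 and 0.859 times replicate 2 in WT, CdxKO and T/BraKO, and replicate 3 stood 2.94, 3.85 and 2.92-fold above replicate 2. With genotype held in the model, replicate 3 was higher than replicate 2 by a log2 fold change of 1.68 (SE 0.11, DESeq2 adjusted p = 2.55e-47), and replicate 1 differed from replicate 2 by 0.05 (adjusted p = 0.782). Utf1 lies at chr7:139943789-139945112 on the plus strand (GRCm38), with no annotated gene overlapping it.

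L1td1 had a like step in replicate 3, although its replicate 1 was 1.57-fold above replicate 2 in CdxKO. WT had 1713, 1774 and 4774 normalised counts, CdxKO 2463, 1567 and 5860, and T/BraKO 2336, 2745 and 5879. Its replicate 3 libraries lay 2.69, 3.74 and 2.14-fold above replicate 2 in WT, CdxKO and T/BraKO, or 1.46 on the log2 scale in the fit (SE 0.21, DESeq2 adjusted p = 1.14e-10). Dppa4 did not show this step. It had 392, 458 and 532 normalised counts in WT, 380, 381 and 480 in CdxKO and 284, 510 and 445 in T/BraKO, and replicate 3 was not above replicate 2 in T/BraKO. For Dppa4 replicate 3 against replicate 2 gave 0.11 (95% interval -0.18 to 0.39, adjusted p = 0.595), and replicate 1 was lower than replicate 2 by -0.36 (adjusted p = 0.0491 in DESeq2 and 0.0590 in edgeR). That call held in 2 of the 9 fits that left out 1 library, and T/BraKO replicates 1 and 2, the lowest and the second highest of the 9, moved it most, to -0.20 (adjusted p = 0.430) and -0.16 (0.487) when left out. L1td1 lies at chr4:98726734-98738480 and Dppa4 at chr16:48283733-48294237, both on the plus strand (GRCm38).

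Otx2, the scarcest of the 8, had the largest fold between replicate numbers. The WT libraries held 106, 127 and 424 normalised counts, the CdxKO libraries 89.0, 71.4 and 455, and the T/BraKO libraries 135, 167 and 424. Replicate 3 was nearly level across genotypes and exceeded replicate 2 by 3.35, 6.37 and 2.54-fold in WT, CdxKO and T/BraKO. The fitted log2 fold change was 1.90 (SE 0.21, DESeq2 adjusted p = 4.39e-18), which is a difference on counts that are low in replicates 1 and 2. Otx2 lies at chr14:48657677-48673819 on the minus strand (GRCm38), and its span also holds Gm49154 on the same strand and Otx2os1 on the other.

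Pou3f1 had a smaller step. Its WT libraries held 621, 532 and 1183 normalised counts, those of CdxKO 959, 677 and 1325, and those of T/BraKO 699, 925 and 1083. The 3 replicate 3 libraries were the highest of the 9, but in T/BraKO the step from replicate 2 was only 1.17-fold, against 2.22-fold in WT and 1.96-fold in CdxKO. Over the genotypes the fit gave 0.77 on the log2 scale (SE 0.23, DESeq2 adjusted p = 0.00317), and it missed the threshold without WT replicate 2 (0.64, adjusted p = 0.0688) or CdxKO replicate 2 (0.62, 0.0687). Replicate 1 passed against replicate 2 without T/BraKO replicate 2 (0.38, adjusted p = 0.0131) but not with all libraries (0.09, 0.801). Whether the step differed between genotypes was not tested. Pou3f1 lies at chr4:124656807-124660655 on the plus strand (GRCm38) and overlaps Gm2164 on the other strand.

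Epha1 had 4988, 4309 and 7921 normalised counts in WT, 5251, 3981 and 8862 in CdxKO, and 4576, 5217 and 8279 in T/BraKO. Here too replicates 1 and 2 were close and replicate 3 was 1.84, 2.23 and 1.59-fold above replicate 2, or 0.89 on the log2 scale in the fit (SE 0.09, DESeq2 adjusted p = 1.99e-23). Replicate 1 against replicate 2 gave 0.14 (adjusted p = 0.234) and passed without T/BraKO replicate 2 (0.28, adjusted p = 0.00157). For Epha1 4 of the 9 libraries held fractional expected counts. The gene lies at chr6:42358487-42373268 on the minus strand (GRCm38) and overlaps Zyx and 2010310C07Rik on the other strand.

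Pou5f1 and Sall4 also differed between replicate numbers. Pou5f1 was higher in replicate 3 than in replicate 2 by 0.40 (SE 0.07, adjusted p = 1.62e-08) and was highest in replicate 3 in each genotype. Replicate 1 against replicate 2 gave -0.13 (adjusted p = 0.126) and passed without CdxKO replicate 1 (-0.21, 0.0233) or CdxKO replicate 2 (-0.21, 0.0163). Sall4 was lowest in replicate 2 in each genotype, so that replicate 3 was higher by 0.30 (SE 0.07, adjusted p = 1.87e-04) and replicate 1 by 0.27 (adjusted p = 0.00145), a call that was lost without WT replicate 1 (0.22, 0.0816).

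Counted over the 8 genes, 7 were called higher in replicate 3 than in replicate 2 (21.8% of 14936 tested genes were). Likewise 7 were called lower in replicate 1 than in replicate 3 (8.03% of 13855). Both counts rest on the same 3 replicate 3 libraries, and the 8 genes were chosen with earlier results of these data known. Replicates 1 and 2 differed in 2 of 8, Sall4 higher and Dppa4 lower in replicate 1, where 30.4% of all tested genes were called in either direction, 16.6% higher and 13.8% lower. The median log2 fold change of the 8 was 0.83 for replicate 3 against replicate 2 and -0.72 for replicate 1 against replicate 3, with medians over all tested genes of -0.0032 and -0.00065. For Utf1, L1td1, Otx2, Pou3f1 and Epha1, 5 of 8, all 3 replicate 3 libraries exceeded the other 6, which held for 10.3% of the 12316 genes averaging at least 50 normalised counts. Replicate 3 was the highest within each genotype for 6 of 8, these and Pou5f1, against 21.2% of those genes. The calls for Pou5f1, Utf1, Otx2, L1td1 and Epha1 in both comparisons with replicate 3 held in all 9 fits that left out 1 library. Lower values in replicate 1 than in replicate 3 were lost for Pou3f1 (-0.68, adjusted p = 0.0249) without WT replicate 1 (-0.64, 0.236), WT replicate 3 (-0.51, 0.0528), CdxKO replicate 3 (-0.69, 0.140) or T/BraKO replicate 1 (-0.57, 0.238). For Dppa4 (-0.47, adjusted p = 0.0137) they were lost without WT replicate 1 (-0.51, 0.0942), WT replicate 3 (-0.45, 0.146), CdxKO replicate 3 (-0.45, 0.119), T/BraKO replicate 1 (-0.31, 0.257) or T/BraKO replicate 3 (-0.51, 0.0680).

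**Figure D3:**
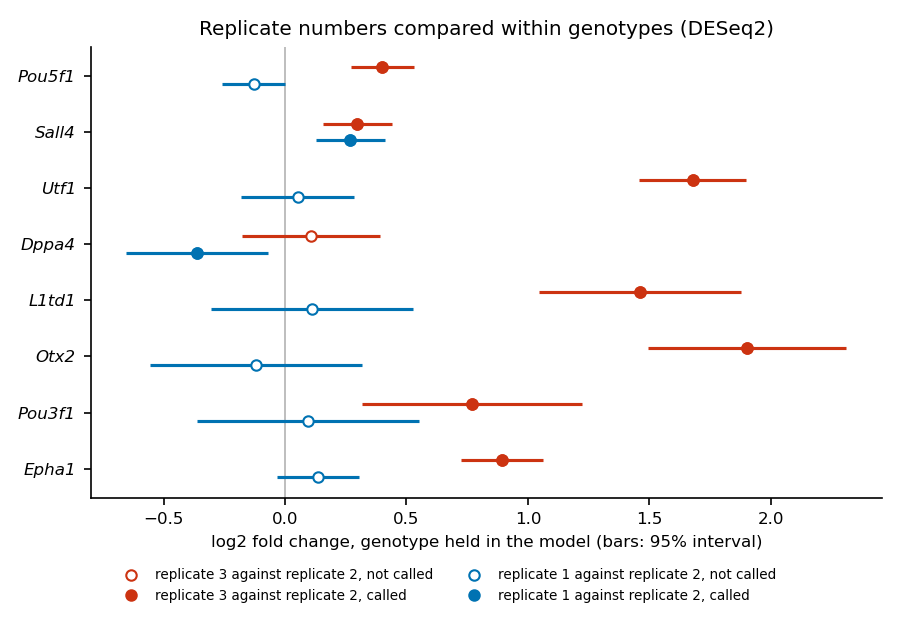
Log2 fold changes of the 8 genes (horizontal axis) between replicate numbers with genotype held in the model, as points with 95% intervals from DESeq2 (red, replicate 3 against 2; blue, replicate 1 against 2), filled where the adjusted p is at most 0.05. Utf1, L1td1 and Otx2 in replicate 3 lie near or above 1.46 while their replicate 1 points lie close to 0.

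Markers of other cells and rRNA also differed between replicate numbers. In replicate 3 against replicate 2, 4 of 7 endoderm markers were higher and 0 lower (median log2 fold change 0.78), as were 7 of 15 caudal epiblast markers, with 1 lower (median 0.43), 3 of 8 paraxial mesoderm markers, with 1 lower (0.33), and 0 of 7 neural markers, with 1 lower (0.75). Among close relatives of the 8 genes 7 of 12 were higher and 1 lower (0.64), beside 21.8% higher and 20.1% lower over all tested genes. The 8 fibroblast markers summed to 57.9 to 62.9 TPM in the replicate 1 libraries, 49.6 to 85.0 in replicate 2 and 36.3 to 47.0 in replicate 3, and 4 of 8 were lower in replicate 3 than in replicate 2 (20.1% of all tested genes). Rn45s, the ribosomal RNA precursor, took 1.69% to 4.21% of counts in replicate 1 and 0.343% to 0.992% in the other 6 libraries. Total expected counts were lower in replicate 1, at 25124344 to 28591410, than in the other libraries, at 30813836 to 34705361. The part of these in the replicate 3 values of the 8 genes was not tested.

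The variation of each gene on the log2 scale over the 9 libraries was divided between genotype and replicate number. Sall4 led for genotype, which took 69.2% of its sum of squares against 23.1% for the replicate number. Pou5f1 was split evenly, 47.4% and 48.0%. For the other 6 genes the replicate number took the larger part, 97.1% in Utf1, 92.5% in Epha1, 89.0% in Otx2, 87.4% in L1td1, 65.4% in Pou3f1 and 59.1% in Dppa4. Dppa4 had the largest remainder, 31.3%, and the smallest SD, 0.28 log2 units over the 9 libraries, while Otx2 had the largest, 1.04. The median over genes that averaged at least 50 normalised counts was 21.7% for genotype and 58.4% for replicate number.

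**Figure D4:**
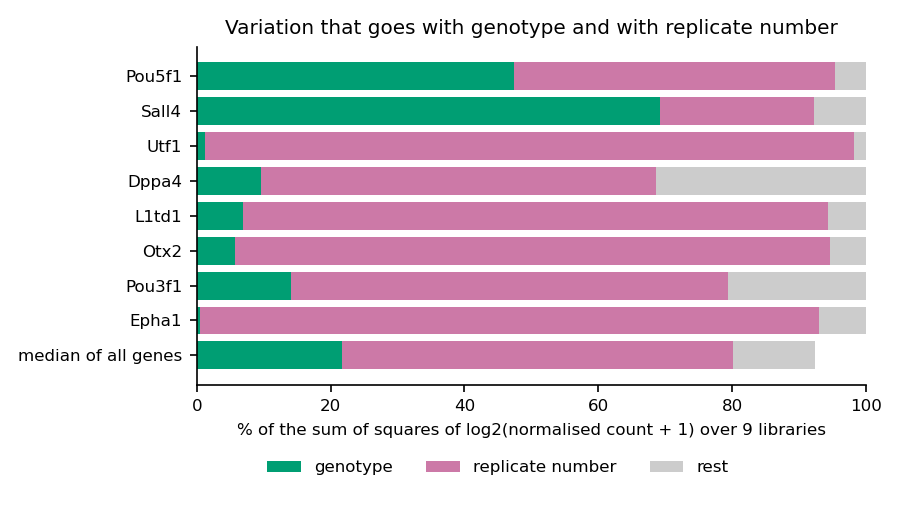
Percent of each gene's sum of squares of log2(normalised count + 1) over the 9 libraries (horizontal axis, 0 to 100) that went with genotype (green), with replicate number (pink) and with neither (grey). Sall4 has the longest genotype bar and Utf1 the longest replicate bar; the lowest bar stacks 3 separate medians over genes and need not reach 100.

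The genes with the most similar course over the 9 libraries were ranked by Pearson's r of log2(normalised count + 1) among genes with a mean of at least 50, as a description over points that share libraries, depth and replicate number. For Pou5f1 these were Rbpms2, Slc5a5 and Cbx6 (r = 0.984, 0.983 and 0.972). For Sall4 they were Actr5, Lin28a and Sapcd2 (0.980, 0.972 and 0.967), and Lin28a, which encodes an RNA-binding protein that blocks let-7 maturation, ranged from 20774 to 30610 normalised counts. Utf1 was followed by Magohb, Mthfd1l and Slc25a15 (0.984, 0.983 and 0.983), L1td1 by Emb, Polr2i and U2af1 (0.987, 0.983 and 0.983), and Epha1 by Utf1 and Hsp90b1 (0.979 and 0.975). Otx2 was most like Dctd, Rrp1 and Ccdc84 (0.974, 0.973 and 0.965), Pou3f1 like Bloc1s2, Lpcat3 and Fam60a (0.977, 0.967 and 0.964), and Dppa4 like Rbm12b1, Thbs4 and Senp6 (0.951, 0.949 and 0.935). Among the 8 genes the closest pairs were Utf1 with Epha1 (0.979), L1td1 with Epha1 (0.969) and Utf1 with L1td1 (0.963). Sall4 was the farthest from these, with r of 0.22 to Utf1, 0.33 to L1td1 and 0.29 to Epha1.

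Because Utf1, Epha1 and L1td1 ran most closely together, the sequence just before their start sites is shown from RefSeq promoter windows (GRCm38.p6), up to the first base of the GENCODE gene. GC boxes (GGGCGG, or its complement CCGCCC, as bound by SP-family factors) are in capitals. The stretches are chr7:139943606-139943788 on the plus strand for Utf1, chr6:42373269-42373518 on the minus strand for Epha1 and chr4:98726504-98726733 on the plus strand for L1td1, each written 5′ to 3′ on the strand of its gene.
Utf1: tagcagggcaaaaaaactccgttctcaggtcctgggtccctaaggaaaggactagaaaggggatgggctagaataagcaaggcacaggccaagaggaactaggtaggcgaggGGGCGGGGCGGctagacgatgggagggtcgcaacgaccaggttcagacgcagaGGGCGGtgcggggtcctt
Epha1: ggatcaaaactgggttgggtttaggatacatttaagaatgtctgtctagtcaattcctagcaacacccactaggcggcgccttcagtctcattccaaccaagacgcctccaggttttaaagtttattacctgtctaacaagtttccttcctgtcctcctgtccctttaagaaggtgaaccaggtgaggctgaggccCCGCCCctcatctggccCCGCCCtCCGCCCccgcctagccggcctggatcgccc
L1td1: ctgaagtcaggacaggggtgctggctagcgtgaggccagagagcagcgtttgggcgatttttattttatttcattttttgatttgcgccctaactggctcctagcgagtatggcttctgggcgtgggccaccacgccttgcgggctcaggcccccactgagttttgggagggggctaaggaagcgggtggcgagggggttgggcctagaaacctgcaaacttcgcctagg
The Utf1 stretch held 3 GC boxes, of which the first and the next share a base, the Epha1 stretch held 3 and the L1td1 stretch none, so the 3 genes do not share this element here. GC content was 59.6%, 54.4% and 57.8%, with 10, 9 and 11 CpG sites over 183, 250 and 230 bases, so these counts are not compared. The full Utf1 window of 250 bases held 4 GC boxes and 14 CpG sites. Over the windows of all genes the medians were 52.4% GC and 6 CpG sites.

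Windows of 250 bases before a start site were found for 5 of the 8 genes, 9 windows in all, and were searched on both strands for 6 motifs. A GC box was in 3 of the 9 windows, 1 each of Utf1, Epha1 and Pou5f1, and in 32.7% of the 32851 windows of all genes. The octamer ATGCAAAT, bound by POU factors, TCF/LEF motif ATCAAAG and T motif AGGTGTGA were in none of the 9 and in 1.60%, 3.21% and 1.12% of all windows. A SOX motif (ACAATGG, 3.02% of all windows) and a CDX motif (TTTATNG, 9.81%) were in 1 window, that of a second Pou5f1 start site. A lack of these letters here says nothing about binding elsewhere.

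The wider epiblast list was read beside the 8 genes. Among 25 other core and primed epiblast genes, 10 were called higher and 3 lower in replicate 3 than in replicate 2 (all 25 tested, where 21.8% of all tested genes were higher and 20.1% lower; median log2 fold change 0.30). Those with the largest values were Foxd3 (3.25, adjusted p = 0.00148), an epiblast forkhead factor with few reads, and Fgf5 (2.46, 6.54e-07), a standard marker of the primed state. Dppa2 (1.67, 5.42e-15), the partner of Dppa4, Pim2 (1.41, 5.15e-69), Tdgf1 (1.37, 5.26e-13), the Nodal co-receptor, and Sox2 (1.04, 4.33e-11) followed. Fgf5 had 239, 153 and 833 normalised counts in WT, 218, 67.0 and 858 in CdxKO and 408, 410 and 1114 in T/BraKO, with replicate 3 the highest of each genotype, as for Otx2. Dppa2 had 177, 115 and 468 in WT, 252, 114 and 357 in CdxKO and 148, 140 and 354 in T/BraKO, unlike Dppa4.

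The naive pluripotency genes that were called took another course in the comparisons with replicate 2. In replicate 1 against replicate 3, 0 of 11 tested were higher and 3 lower (8.03% of all tested genes were lower). That is the direction in which 7 of the 8 genes were called. For replicate 3 against replicate 2, of 13 tested 8 were not called by DESeq2, 0 were called higher and 5 lower (21.8% and 20.1% of all tested genes). In edgeR 0 were higher and 6 lower, where 25.6% of all tested genes were lower. For replicate 1 against replicate 2, 6 of 12 were lower (13.8% of all tested genes). Tfcp2l1, a naive transcription factor, had 540, 1339 and 553 normalised counts in WT replicates 1, 2 and 3, and Esrrb, a nuclear receptor of the naive network, 92.3, 359 and 144. Nanog, which sits on the other epiblast list, had 870, 2876 and 1951. Klf2, chosen after its values were seen, went the other way, with all 3 replicate 3 libraries (213, 185 and 243 in WT, CdxKO and T/BraKO) above the other 6, although it was not called (0.62, DESeq2 adjusted p = 0.294). The replicate 2 libraries were the highest for Tfcp2l1, Esrrb and Nanog, where replicate 3 was the highest for Utf1, L1td1 and Otx2.

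Between genotypes most calls among the other epiblast genes needed the block. DESeq2 without it called 0 of 25 in T/BraKO against WT (2 at an unadjusted p under 0.05, and 0 in edgeR). With the block 7 of 24 were higher and 1 lower in T/BraKO (4.83% and 4.85% of all tested genes). Their median log2 fold change was 0.20, beside 0.016 over all genes. In edgeR with the block 4 were higher and 1 lower (4.25% and 5.12%). Tdgf1 (0.70, adjusted p = 0.00246), Pim2 (0.48, 1.03e-07), Zic2 (0.38, 8.71e-05), the methyltransferase gene Dnmt3b (0.36, 3.10e-09) and Slc7a3 (0.32, 0.00857) were higher, as Pou5f1 and Sall4 were, and Fgf4 (-1.36, 0.00371) was lower. In CdxKO against WT with the block 1 of 24 was higher, Slc7a3 (0.52, adjusted p = 2.31e-06), and 2 were lower, Fgf4 (-1.27, 0.0123) and Lin28a (-0.25, 0.00573). In CdxKO against T/BraKO with the block 0 of 25 were higher and 9 lower (7.75% and 6.9% of all tested genes). In edgeR with the block 6 were lower (8.41%). Lin28a was also the single call of this list without the block, at -0.40 in CdxKO against T/BraKO (adjusted p = 0.00473), where Sall4 had -0.58. Sox2 had 663, 472 and 967 normalised counts in WT, 846, 480 and 713 in CdxKO and 805, 364 and 1027 in T/BraKO, with overlapping ranges.

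**Figure D5:**
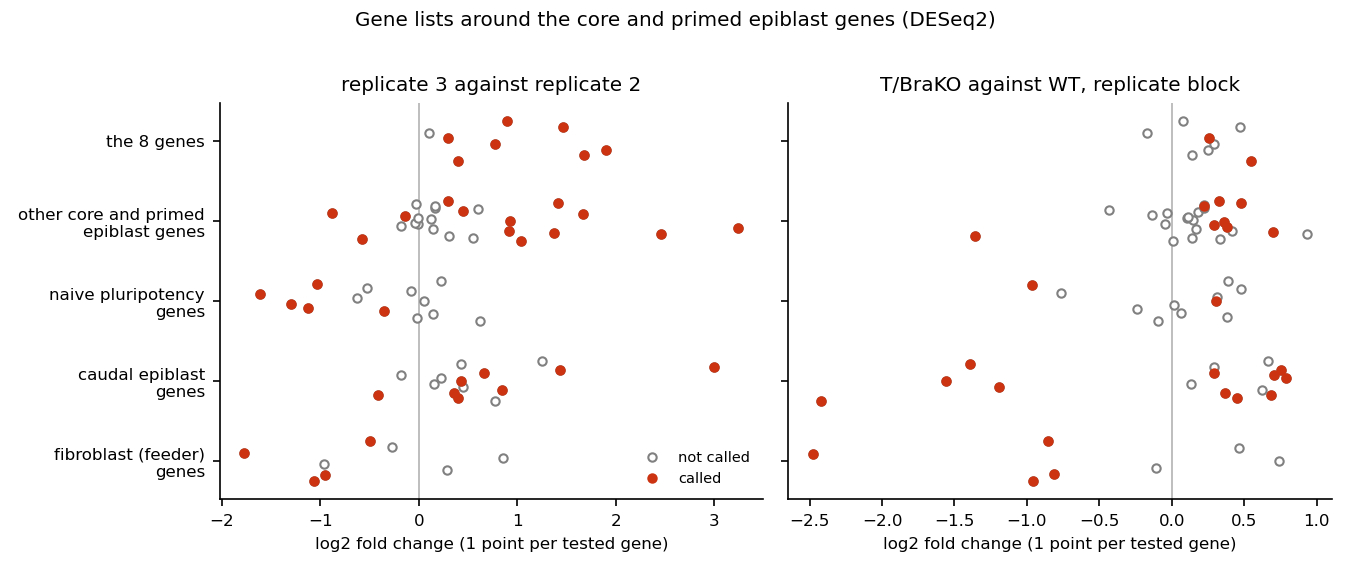
Log2 fold changes (horizontal axes) of single genes in 5 gene lists, with 1 point per gene tested by DESeq2 and red where the adjusted p is at most 0.05, for replicate 3 against replicate 2 (left) and for T/BraKO against WT with the replicate block (right). In the left panel 7 of the 8 genes are red and to the right of 0, while the red naive genes lie to the left; in the right panel Pou5f1 and Sall4 are the red members.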

How the data were processed

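PolyA RNA from 9 cultures was sequenced in single reads of 76 bases that keep strand. Reads were trimmed by the authors with cutadapt (1.16), aligned with STAR (2.5.2a) and counted over RefSeq genes of mm10 with RSEM (1.3.0). The authors deposited expected counts and TPM for each gene and library, with counting set to the strand of the reads, and RSEM shares out reads that match several genes. All 9 samples were matched to their columns and 0 columns were left over.

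Expected counts were rounded and tested over all genes with DESeq2 (1.42.0; Wald test, unshrunken log2 fold changes, Benjamini-Hochberg adjusted p of at most 0.05), fitted to all 9 libraries, with genotype alone for the genotype comparisons (the study used DESeq2 1.16.1, and its design is not given in the sources used here) and with genotype and replicate number for the replicate comparisons. Alternatives were edgeR's quasi-likelihood test (4.0.16), TMM factors, a low-count filter (10 counts in 3 libraries), fits to the 6 libraries compared, no genotype term, the replicate block and each library left out. The block with TMM factors, with each library left out and without replicate 3 was added after seeing the data. The replicate numbers, from the sample titles, pair the samples: deviations from the group means correlated in each of the 9 same-number pairs (r 0.532 to 0.814 over 12316 genes). The labels call the replicates biological, and no 2 of a group agreed within sampling noise. The fitting code was tested on simulated counts.

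Besides the 8 genes, the text names T, Cdx1, Cdx2, Cdx4 and Sox2, from each gene list up to 6 called genes of largest log2 fold change (or, with none called, up to 2 averaging 50 normalised counts or more), and the 3 genes most like each member, of which 1 for Epha1 is not reported here. Nanog, Klf2, Gbx2, Thy1, Dcn, Col3a1 and the choice of Col1a1, Tfcp2l1 and Esrrb among called genes came after their values were seen. The 8 genes and the lists were chosen with earlier results of these data known. Counts limit precision through 25124344 to 34705361 expected counts per library. Coordinates and overlaps are from GENCODE M21 (GRCm38), promoter windows from RefSeq.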

Additional observations from a re-analysis of the deposited data

Results flagged for a closer look

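The effects of the 2 mutations, each set against the same 3 WT libraries, differed from one another for 2 of the 8 genes with the replicate block, beside 14.6% of all genes tested (18.5% in edgeR with the block). For Sall4 the direct test of CdxKO against T/BraKO gave a log2 fold change of -0.58 (DESeq2 adjusted p = 0.00546) and, with the replicate block, -0.57 (adjusted p = 2.62e-13), and it was lower in CdxKO in 3 of 3 replicate numbers. For Pou5f1 the difference was -0.33 with the replicate block (adjusted p = 2.20e-05), lower in CdxKO in 3 of 3 replicate numbers, and it did not pass without the block (adjusted p = 0.674). edgeR without the block called neither gene (adjusted p = 0.0762 for Sall4 and 0.653 for Pou5f1). Single libraries were not tested for standing apart, since each group holds 3.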

How the results depend on the processing

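With the replicate block, 1 gene was called higher and 1 lower in CdxKO against WT, 2 higher in T/BraKO against WT and 2 lower in CdxKO against T/BraKO, in place of 0, 0, 0 and 1. TMM factors with the block gave the same 1, 1, 2 and 2, and edgeR with the block gave 0, 1, 2 and 2. edgeR without the block called 0 lower in CdxKO against T/BraKO. Without the 3 libraries of replicate number 3, 1 gene was higher in T/BraKO against WT and 0 were lower in CdxKO against T/BraKO, and with the block 1 was lower in CdxKO against WT, 1 higher in T/BraKO against WT and 2 lower in CdxKO against T/BraKO. For replicate 1 against replicate 2, edgeR called 0 lower, and a fit with no genotype term 0 higher and 0 lower. The causes of these changes were not tested. Shares over all genes are not given for TMM factors, the low-count filter, no genotype term or fits that left out libraries.

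Leaving out each library in turn, with and without the block, gave 0 to 2 higher and 0 to 1 lower in CdxKO against WT, 0 to 3 higher in T/BraKO against WT, 0 to 1 higher and 0 to 3 lower in CdxKO against T/BraKO, and 0 to 3 higher and 0 to 2 lower in replicate 1 against replicate 2. No value whose sign differed from that of the fit to all libraries was called, while other fits within the ranges below did pass, as given above for L1td1, Otx2 and Pou3f1. For CdxKO against WT the log2 fold changes ran from -0.56 to 0.99 for Utf1, -1.45 to 0.82 for Otx2, -0.45 to 0.92 for L1td1 and -0.31 to 0.38 for Epha1. For T/BraKO against WT they ran from -0.62 to 0.87 for Utf1, -0.54 to 1.06 for Otx2, -0.38 to 0.050 for Dppa4, -0.12 to 1.07 for L1td1 and -0.23 to 0.37 for Epha1. For CdxKO against T/BraKO they ran from -0.73 to 0.90 for Utf1, -1.59 to 0.45 for Otx2, -0.14 to 0.37 for Pou3f1, -0.21 to 0.23 for Dppa4, -0.86 to 0.38 for L1td1 and -0.38 to 0.30 for Epha1. For replicate 1 against replicate 2 they ran from -0.083 to 0.15 for Utf1, -0.38 to 0.11 for Otx2, -0.066 to 0.38 for Pou3f1 and -0.12 to 0.30 for L1td1, for replicate 3 against replicate 2 from -0.033 to 0.31 for Dppa4, and for replicate 1 against replicate 3 from -0.081 to 0.041 for Sall4.

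Other changes of sign were close to 0. Without replicate number 3, Epha1 in CdxKO against WT was at -0.012, and at -0.017 with the block. For CdxKO against T/BraKO, Epha1 was at -0.032 with the block, -0.0015 with TMM factors, -0.034 with both, -0.026 in edgeR with the block, and at -0.087 and -0.10 without replicate number 3, without and with the block. There Dppa4 was at -0.0016 with TMM factors, and at -0.063 and -0.021 without replicate number 3, without and with the block, where Pou3f1 was at -0.0096. Both comparisons with replicate 3 gave 7 calls with TMM factors, the low-count filter and edgeR, and without a genotype term 5 against replicate 2. Of all genes tested, edgeR called 25.2% higher in replicate 3 than in replicate 2, and 9.56% lower in replicate 1 than in replicate 3. Over all genes, 116, 205 and 558 were called in the 3 genotype comparisons, 736, 1237 and 2187 with the replicate block, 16, 56 and 237 in edgeR and 681, 1383 and 2732 in edgeR with the block. Counts were lowest for Otx2, at 71 to 484 reads per library, and Dppa4, at 257 to 571.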
